A study of Sparus aurata with 9 samples.

Results

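The comparison described here set the livers of juvenile gilthead sea bream (Sparus aurata) kept for 24 h in seawater with 50 µg/L gold nanoparticles (AuNP) against those of unexposed fish kept in the same way. Its members are the 3 arrays titled 50 μg/L and the 3 titled Control, 6 of the 9 arrays of the series. The other 3 arrays hold livers exposed to 0.5 µg/L, which did not enter the comparison. The design text gives 9 fish of about 50 g per group for the arrays, whereas the treatment protocol counts 10 sampled per group. RNA was extracted from each liver and combined into 3 pools of 3 fish, so n = 3 pools per group, each on 1 one-colour (Cy3) Agilent array. Fish were exposed in 2 tanks per condition with 10 fish per tank. The labels do not tie pools to tanks, so tank and exposure cannot be told apart, and p-values measure the spread between pools.

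The liver is the main organ of xenobiotic metabolism and metal handling in fish, and it also makes most plasma proteins, including transport and clotting proteins and complement. Particles that reach the blood of a fish can be retained in the liver, where uptake may be followed by changes in metal-binding, antioxidant and protein-folding transcripts. Which of these genes a probe measures could not be read here: the array names its 15156 sequences by contig and clone, and 0 of the sequence or probe names matched the RefSeq gene table of the species. Neither the tissue label nor any other cell type could therefore be checked by markers. In RNA from a whole organ, fewer cells of a type and less RNA per cell cannot be told apart.

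Levels are given as the log2 spot signal minus the log2 75th percentile of the same array, so a level of 0 is that percentile and a difference of 1 is 2-fold. Of 28793 probes, 9196 were well above background (the scanner software's call) on all 3 arrays of either group. They stood for 5147 sequences, of which 2292 had 2 or more kept probes. The pools at 50 µg/L had 9348, 10145 and 8423 probes well above background, and the control pools had 13532, 9529 and 10215, with control pool 1 standing above all others. Across the kept probes, arrays of different groups correlated at 0.949 to 0.969 and arrays of one group at 0.948 to 0.977. Between pools of one group, 5.09% to 10.8% of sequences differed by 2-fold or more at 50 µg/L, and 3.57% to 6.28% did so in controls. Pool 2 lay farthest from the other pools at 50 µg/L.

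No sequence passed the test at 50 µg/L, but 1 contig reached its edge and was separated from controls on each of its probes. A limma fit of the 6 arrays called 0 of 5147 sequences (0%) at an adjusted p under 0.05. At an unadjusted p under 0.05 there were 649 (12.6%), of which 209 were higher (4.06%) and 440 lower (8.55%) at 50 µg/L. The smallest adjusted p was 0.0505, held by the only sequence under 0.10 (0.0194%), and the next was 0.262.

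The sequence with the smallest p was the contig Seabream_2006-01-03-CL1722Contig1. It was picked by its p in the 6 arrays, which favours a wide gap and a small spread. Its values in those arrays, also by probe, by slide and without single pools, are therefore a description. Its levels were 7.42, 7.54 and 7.38 at 50 µg/L, against 5.85, 5.60 and 5.78 in controls. The 2 groups lay far apart, and the pools of each group lay close together, with means of 7.45 ± 0.08 for the exposed pools and 5.75 ± 0.13 for the controls (SD, n = 3 each). The log2 difference was 1.70 ± 0.17 (SE), a 3.25-fold higher level with an unadjusted 95% interval of 2.47 to 4.28-fold (adjusted p = 0.0505 in limma).

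This contig was measured by 3 probes, and they gave nearly the same answer. Their log2 differences were 1.71, 1.69 and 1.71, with 1 spot per probe and the spots at least 114 rows apart on the array. When each probe was tested on its own, limma called 3 of 9196 probes (0.0326%), and these were the 3 probes of this contig, each with an adjusted p of 0.0374. The 3 probes measured the same contig in the same pools, so these are not independent calls. Tested once as a sequence, the contig did not pass (limma adjusted p = 0.0505). The median processed signal of its spots was 48369, 54236 and 36858 units at 50 µg/L, against 16528, 9070 and 10031 units in controls. All spots were well above background, none was flagged as an outlier, and no spot of the 6 arrays was saturated.

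The 6 arrays lay on 3 slides with 1 pool of each group on each slide, so the difference could also be taken within slides. For Seabream_2006-01-03-CL1722Contig1 it was 1.57 on slide 1, 1.93 on slide 2 and 1.60 on slide 3. The 50 µg/L arrays lay at position 3 and the controls at position 1 of every slide, so array position and exposure cannot be told apart. Leaving out each pool in turn gave log2 differences of 1.63 to 1.75 and adjusted p of 0.0651 to 0.448. With the slide as a fixed block, the adjusted p was 0.327.

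The 0.5 µg/L pools, which were outside the comparison, showed how much this contig can vary between pools of one group. Its levels there were 4.79, 7.20 and 5.83. One of these pools lay near the level at 50 µg/L, another lay among the controls and the third lay below them. With all 9 arrays in one fit, so that this spread entered the error, the adjusted p for 50 µg/L against controls was 0.258.

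**Figure D1:**
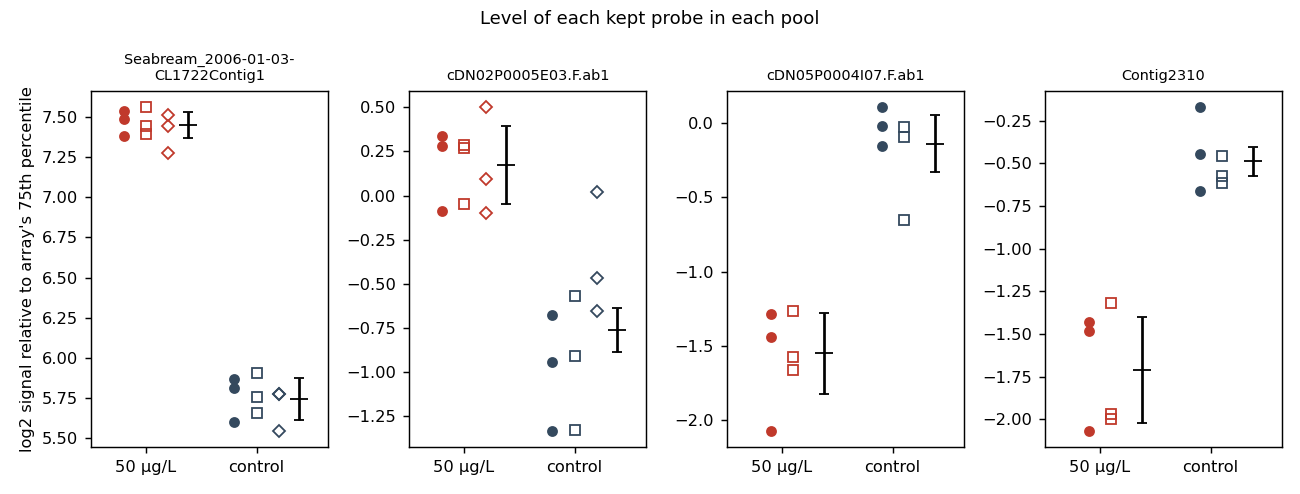
Log2 signal relative to the 75th percentile of each array for the kept probes of 4 sequences, in the 3 pools at 50 µg/L (red) and the 3 control pools (dark), with 1 marker shape per probe and the sequence mean ± SD of the pools in black. Each panel has its own vertical scale. In the first panel the values at 50 µg/L run from 7.27 to 7.56 and those of controls from 5.55 to 5.91.

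A clone, cDN02P0005E03.F.ab1, followed among higher sequences with 2 or more probes on the same side. Its levels were 0.24, -0.08 and 0.35 at 50 µg/L, against -0.63, -0.77 and -0.88 in controls. The groups did not overlap for the mean of its probes, but they did for 1 of its 3 probes. The probes had log2 differences of 1.16, 1.10 and 0.53, and each was well above background on 3 arrays at 50 µg/L and on 2 control arrays. All 3 were thus kept through the 50 µg/L arrays alone, so the filter favoured a higher level. Of 101 sequences kept in this way, 43 were higher and 0 lower at an unadjusted limma p under 0.05. The log2 difference of the clone was 0.93 ± 0.19 (SE) and did not pass (limma adjusted p = 0.262), and it was 0.51 with normexp, a model-based background correction. At 0.5 µg/L its levels were -1.72, -1.55 and -1.19, all below the controls. None of its probes was well above background there, so these levels are only bounds.

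Among lower sequences the clone cDN05P0004I07.F.ab1 came first by the same rule. Its levels were -1.82, -1.27 and -1.55 at 50 µg/L, against -0.34, -0.12 and 0.04 in controls. The groups did not overlap on either kept probe. Both probes were well above background on all 3 control arrays and on none at 50 µg/L, where the levels are therefore only bounds. They were kept through the controls alone, so the filter favoured a lower level and groups without overlap. Of 900 sequences kept in this way, 0 were higher and 195 lower at an unadjusted limma p under 0.05. Levels at 50 µg/L under the lowest signal well above background on their array were raised to that floor. The probes were then 2.83-fold and 2.28-fold lower on this scale. The floor was taken over all probes of an array, and a probe can miss the call above it. The first of these probes did so at 0.5 µg/L, at -0.67 and -0.42, so these folds are not strict minimums. The measured log2 difference of -1.41 ± 0.21 (SE) did not pass (limma adjusted p = 0.262). It shrank to -0.53 with normexp and to -0.96 with spike-in scaling, both smaller than these folds. Its levels at 0.5 µg/L were -1.46, -0.42 and -0.42, with 1 kept probe well above background on 1 of these arrays and the other on none.

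Contig2310 gave the same picture. Its levels were -1.40, -1.71 and -2.02 at 50 µg/L, against -0.39, -0.51 and -0.56 in controls, again without overlap. Its 2 kept probes, with 2 spots each, also passed the filter through the controls alone, which favoured a lower level. They were well above background on all 3 control arrays and on none at 50 µg/L. The call needs no more than 1 of the 2 spots. Counting a probe that was not kept, 6, 3 and 4 of the contig's 6 spots passed in control pools 1, 2 and 3. Against the same floor, the levels at 50 µg/L were 2.06-fold and 2.08-fold lower on this scale, which again are not strict minimums. The measured log2 difference of -1.22 ± 0.21 (SE) did not pass (limma adjusted p = 0.262). With normexp it was -0.47 and with spike-in scaling -0.77, again smaller than these folds. At 0.5 µg/L this contig stood at -1.44, -1.45 and -0.94, also below every control. There, 1 kept probe was well above background on 1 array and the other on none, so these levels are mostly bounds.

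Agreement between probes of a sequence was also counted. These probes measured the same pools, so they are not independent. Of the 2292 sequences with 2 or more kept probes, 1745 (76.1%) had all probes on the same side. Every probe separated the groups without overlap in 71 sequences that were higher at 50 µg/L (3.1%) and in 104 that were lower (4.54%). Every probe was also at least 2-fold different in 8 higher sequences (0.349%) and 8 lower ones (0.349%).

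These 16 sequences were picked by their values in the 6 arrays, so their differences are a description. The 8 higher ones were 2.05 to 3.97-fold higher, with a median of 2.53-fold, and 7 of them had 3 kept probes. The 8 lower ones were 2.09 to 3.30-fold lower as measured, with a median of 2.39-fold, and 2 of them, both named above, passed the background call on none of the 3 exposed arrays. All kept probes were well above background on all 6 arrays for 4 of the higher and 5 of the lower sequences.

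**Figure D2:**
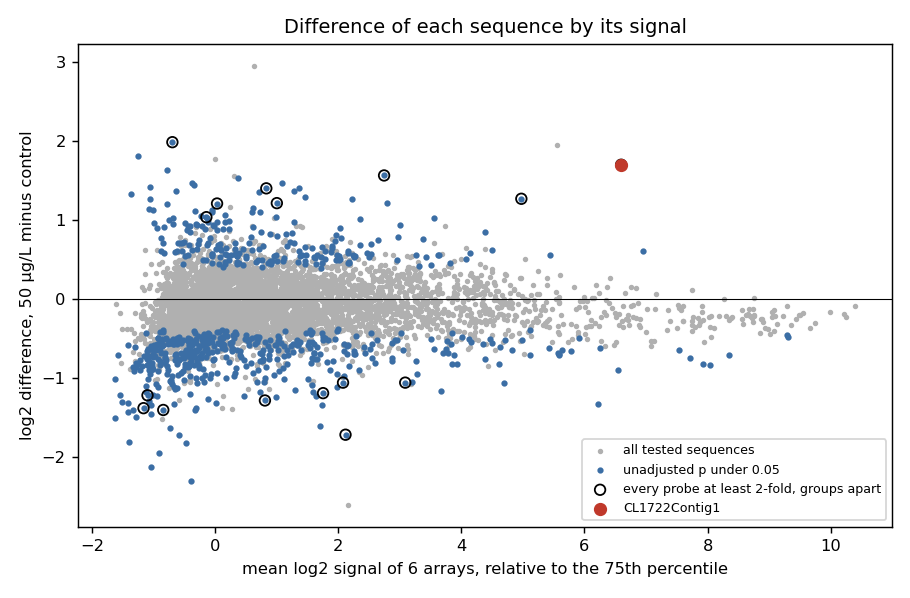
Log2 difference, 50 µg/L minus control, of each of 5147 sequences against its mean log2 signal over the 6 arrays. Blue points had an unadjusted p under 0.05, ringed points are the 16 sequences with every probe at least 2-fold different and the groups apart, and the red point is CL1722Contig1, at a difference of 1.70 and a signal of 6.60.

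Large differences were few in both directions. A measured difference of 2-fold or more was seen in 46 sequences that were higher (0.894%) and in 94 that were lower (1.83%) at 50 µg/L. Of these, 37 higher (0.719%) and 58 lower (1.13%) had groups that did not overlap. Without a fold limit, the groups did not overlap in 360 higher (6.99%) and 632 lower (12.3%) sequences. The filter favoured part of these counts. Kept through the 50 µg/L arrays alone were 21 of the 46, and through the control arrays alone 59 of the 94. Among 3719 sequences whose probes all passed in both groups, 20 were at least 2-fold higher and 32 lower. Of these 3719, groups did not overlap in 290 higher and 364 lower. The unadjusted 95% interval lay wholly within 2-fold of no difference for 3631 of the 5147 sequences (70.5%), and its median half-width was 1.44-fold.

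Most of the surplus of lower sequences was found among the dimmest. The sequences were split by signal into 5 bins of equal size. In the dimmest bin, 43 sequences were higher and 178 lower at an unadjusted p under 0.05, with a median log2 difference of -0.25. In the other 4 bins the counts ran from 32 to 49 higher and from 54 to 76 lower, with medians from -0.13 to -0.06. Probes could be kept for being well above background in 1 group, 228 of them through the 50 µg/L arrays alone and 1488 through the control arrays alone. For such probes the filter favours a higher level in that group. How much of their direction comes from the filter was not tested. Among 3719 sequences whose probes all passed in both groups, 146 were higher and 213 lower, with a median of -0.07.

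The direction of this lean depended on how arrays were brought to a common scale and on the filter. The median log2 difference over all sequences was -0.11 relative to the 75th percentile, -0.07 with quantile normalization and -0.0041 with median centring. With median centring 357 sequences were higher and 188 lower at an unadjusted p under 0.05, the opposite of the 209 and 440 above. With scaling to the added spike-in RNA the median was 0.34, and 518 were higher and 33 lower. That fit used the same error variance for all sequences. On the 75th percentile scale but with no filter on dim probes, 420 of 15156 sequences were higher and 348 lower, with a median of 0.20. The shift between the scales can be read from single values of the arrays. The log2 75th percentile minus the spike-in signal was -4.87, -4.96 and -4.79 at 50 µg/L, against -4.79, -5.54 and -5.64 in controls, where control pool 1 lay with the exposed pools. The difference of 0.45 gave p = 0.40 in an exact two-sided permutation test, and 0.50 after adjustment over 5 such array measures, where 3 against 3 pools cannot go below 0.10. Seabream_2006-01-03-CL1722Contig1 stayed higher under each of these scales, at 1.81 with median centring, 1.89 with quantile normalization and 2.15 with spike-ins. None of the 4 named sequences changed direction under any setting in which it was tested. The other 3 dropped out with detection required on all 6 arrays, and their differences were much smaller with normexp, as given above.

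**Figure D3:**
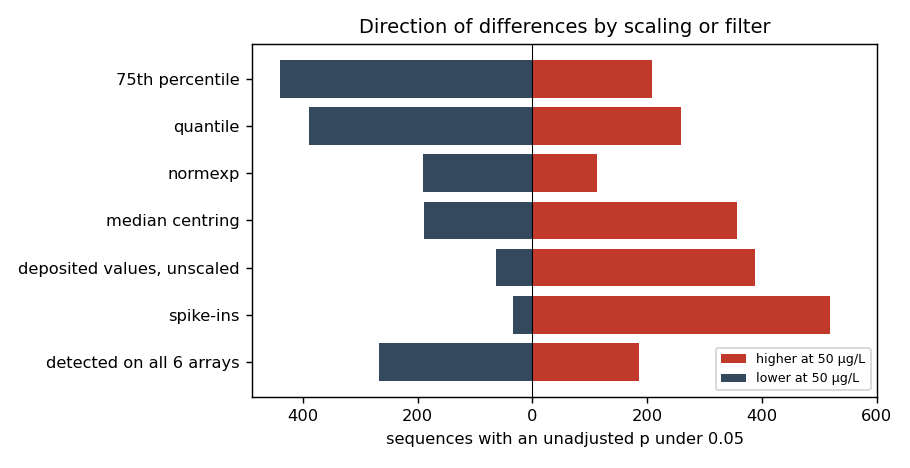
Number of sequences with an unadjusted p under 0.05 that were higher (red, to the right) or lower (dark, to the left) at 50 µg/L than in controls, under 6 ways of scaling and with the stricter filter on detection. The longer side changes from lower (440 against 209 with the 75th percentile) to higher (518 against 33 with spike-ins).

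Probes that were detected in one group only were counted separately. Well above background on all 3 arrays at 50 µg/L and on no control array were 2 probes, of 2 sequences. Against the floor described above, they were 3.83-fold and 2.18-fold higher. Well above background on all 3 control arrays and on none at 50 µg/L were 202 probes of 187 sequences. Against that floor, 27 of the 202 probes were at least 2-fold lower at 50 µg/L, and the median was 1.50-fold. A probe can miss the call above the floor, so none of these folds is a strict minimum. For 112 of the 202 the levels of the groups did not overlap. Of the 187 sequences, 14 had 2 or more of the 202 probes, with or without overlap. Over all 5147 tested sequences, 632 (12.3%) were lower without overlap, which is a share of sequences and not of probes. The probes detected in one group only were chosen by their detection in the 2 groups, which favours groups that do not overlap. Their differences are therefore a description. Over the whole array, the pools exposed to 50 µg/L averaged 9305 ± 862 probes above background, against 11092 ± 2141 for the control pools (SD, n = 3 each, exact two-sided permutation p = 0.20, 0.50 adjusted over the 5 measures). The part of that difference in the 202 probes was not tested.

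The names of the sequences sort them into series, and no test was run of the differences between these. The 2839 assembled contigs had a median log2 difference of -0.06 with 134 higher (4.72%) and 181 lower (6.38%) at an unadjusted p under 0.05. The 2308 single clones had a median of -0.17 with 75 higher (3.25%) and 259 lower (11.2%). With detection required on all 6 arrays, the medians were -0.03 for 2383 contigs and -0.12 for 1754 clones, with 124 higher and 120 lower contigs and 62 higher and 148 lower clones. Within slides 1, 2 and 3 the medians were -0.02, -0.13 and 0.03 for contigs and -0.04, -0.26 and -0.15 for clones, so the 2 kinds lay close together on slide 1. Among the 14 clone series named cDN01 to cDN14, the median ran from -0.29 in cDN05 (1 higher and 21 lower of 122; -0.03, -0.47 and -0.27 within the 3 slides) to -0.10 in cDN02 (11 higher and 12 lower of 157). Of 851 cDN05 clones on the array 14.3% were tested, and of 440 cDN01 clones 62.5%. What sets the series apart in origin is not given in the sources used here.

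**Figure D4:**
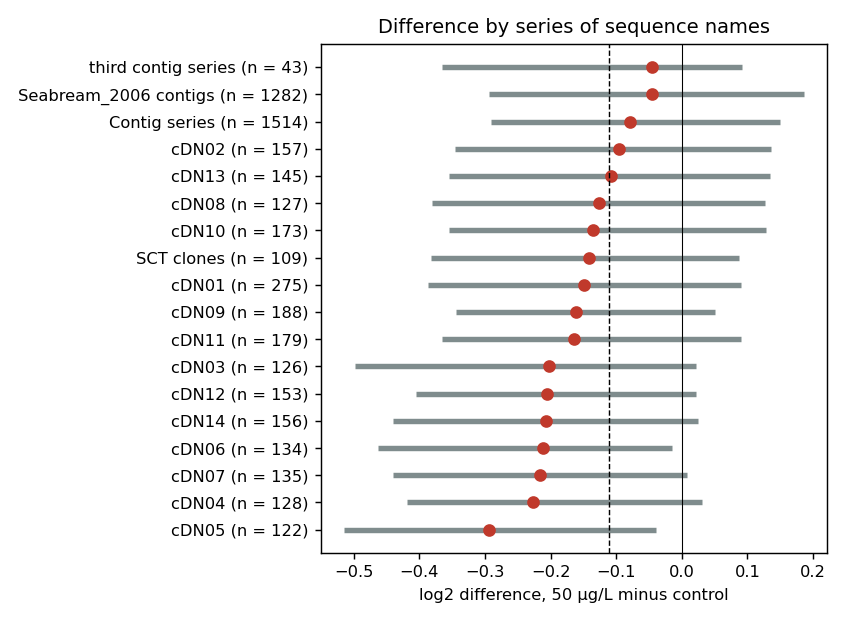
Median log2 difference, 50 µg/L minus control, of the sequences of each name series (red), with the lower and upper quartiles (grey bars) and the number tested. The dashed line is the median of all 5147 sequences, -0.11, and the contig series lie to its right with all but 2 of the other series to its left.

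The spread between pools was wider at 50 µg/L for most sequences, which was not tested. The SD of a sequence over the 3 pools had a median of 0.28 at 50 µg/L and 0.21 in controls, and it was larger at 50 µg/L in 3172 sequences (61.6%). The median absolute log2 difference between pools was 0.39, 0.27 and 0.33 at 50 µg/L for pools 1 and 2, 1 and 3, and 2 and 3, against 0.26, 0.28 and 0.21 in controls. Pools 1 and 3 at 50 µg/L thus differed no more than control pools 1 and 3, and the wider pairs both held pool 2. Over all sequences, the median difference between groups was -0.03 on slide 1, -0.19 on slide 2 and -0.05 on slide 3. At 50 µg/L, 47.2%, 36.1% and 46.4% of the 5147 sequences were higher on slides 1, 2 and 3. On all 3 slides, 673 were higher and 1144 lower. This was not tested, and the lean to lower levels depended on the scale, as given above.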

How the data were processed

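Liver RNA of 9 pools was measured on one-colour arrays, and 6 of them were compared. Per the labels' protocols, 200 ng of total RNA per pool was labelled with added spike-in RNA. The scanner software was Agilent Feature Extraction, version 10.7.3.1, per the file headers. Its deposited output gives linear intensity per spot, and the processed signal used here had its background subtracted by that software. The authors' deposited value table holds log2 values, which equalled the log2 background-subtracted signal of the scanner files, are empty where that signal was 0 or less and were not scaled to each other. The medians of its columns were 7.33, 7.16 and 6.97 at 50 µg/L and 7.00, 6.58 and 6.55 in controls. Neither scale, centring nor direction of these values stayed unknown.

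From 43803 spots that were not controls, log2 processed signal minus the 75th percentile of the array was averaged per probe, leaving out outlier-flagged spots unless all spots of a probe were flagged. A probe was well above background on an array where no fewer of its used spots were called so than were not. Probes so called on all 3 arrays of either group were averaged per sequence. The test was limma 3.58.1 (R 4.3.3; lmFit and eBayes) with Benjamini-Hochberg adjustment over all sequences and a threshold of 0.05, and the scripts were tested on simulated data. Exact permutation tests served single values per array. The number of arrays limits the precision.

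At most 2 higher and 2 lower sequences were named: called ones first, then those of smallest p with 2 or more kept probes on the same side. Lists of liver, stress and cell type genes could not be applied, because 0 names matched. The comparison, rules and alternatives were chosen with earlier results of these data known. Normexp was run on the median spot and background signals with an offset of 50. Pool numbers coincided with slides (file headers). Deviations from the group mean of same-numbered pools correlated at -0.04, 0.01 and -0.11, so the numbers were not taken to pair pools.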

Additional observations from a re-analysis of the deposited data

Results flagged for a closer look

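A signal appeared among the 19597 probes that the detection filter kept out of the comparison. Pool 2 at 50 µg/L had 199 such probes, of 146 sequences, at least 8-fold brighter than in any control pool, beside 45 and 29 probes in pools 1 and 3 at 50 µg/L. In the other direction, control pools 1, 2 and 3 had 24, 74 and 29 probes at least 8-fold brighter than in any pool at 50 µg/L. Of the 199 probes, 60 had 2 or more spots, and every spot was as bright for 54 of them, against 0 of 10 such probes in control pool 2. For 0 of the 199 were both other pools at 50 µg/L at least 2-fold over the brightest control.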

How the results depend on the processing

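The 0 sequences called at 50 µg/L against controls became 1 with median centring, 1 with detection required on all 6 arrays, 1 with an intensity trend and robust prior and 1 with array weights, and each time this was Seabream_2006-01-03-CL1722Contig1, higher at 50 µg/L. Deposited values gave 3, all higher and this contig among them, and single probes gave 3, all of this contig. Spike-in scaling gave 52, of which 48 were higher. That limma fit gave all sequences the same error variance (infinite prior degrees of freedom, against 3.92 in the main fit). Its count is therefore not comparable with the others. In the main fit, an adjusted p under 0.10 passed 1 sequence and an unadjusted p under 0.05 passed 649. The count stayed 0 with all 9 arrays, normexp, quantile normalization, no filter on dim probes, outlier-flagged spots kept, and the slide as a fixed (replicate block, smallest adjusted p 0.327) or random block. Leaving out one pool gave 0 to 2 calls, with 1 without pool 1 and 2 without pool 2 at 50 µg/L, all lower there. At an unadjusted p under 0.05, control pools 2 and 3 counted most: 309 sequences passed without pool 2 and 368 without pool 3, against 649 with all pools. The cause of these shifts was not tested. The contig's log2 difference stayed between 1.63 and 2.15 over all settings. Those of the other named sequences ran from 0.51 to 1.38 for cDN02P0005E03.F.ab1, from -1.55 to -0.53 for cDN05P0004I07.F.ab1 and from -1.38 to -0.47 for Contig2310, each smallest with normexp. These sequences dropped out with detection required on all 6 arrays. At an unadjusted p under 0.05, more sequences were higher than lower with median centring, spike-in scaling, deposited values (387 and 63) and no filter on dim probes (420 and 348). Dim signal limits the named lower sequences, which were not well above background at 50 µg/L.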
